A study of Mus musculus with 24 samples.

Results

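Sham laparotomy was followed here from postoperative day 1 (POD1) to postoperative day 2 (POD2) in 6 libraries, 3 from each day, of the 24 libraries in the series. The 6 are all the libraries that the labels give as sham at POD1 or POD2. All mice were wild-type male BALB/C animals aged 8 weeks. The sham mice had a midline incision of the abdomen and nothing else, and the comparison mice lost 70% of the liver. Livers were digested with collagenase, the non-parenchymal fraction was collected, and CD11b+Ly6G+ cells were taken from it on successive magnetic columns before poly-A RNA was sequenced. The labels call the product G-MDSCs, granulocytic myeloid-derived suppressor cells. They do not say whether the 3 replicates of a day came from separate mice. The p-values here thus measure only the spread between libraries of the same group, which may be technical. In the main test that spread was estimated over all 24 libraries. The comparison of POD2 with POD1 in sham asks what changes after the incision alone, without loss of liver.

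Granulocytic myeloid-derived suppressor cells share surface markers with neutrophils and are known for holding back T cells through arginase, reactive oxygen species and prostaglandins. Surgery mobilises neutrophils from the bone marrow, and the liver sinusoids are a place where they collect. The sinusoids are lined by a specialised, fenestrated endothelium that scavenges with the stabilins and the Fc receptor Fcgr2b and is plentiful in a liver digest.

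The 6 libraries held 12372923 to 16949088 counts each, with 17636 to 19576 genes detected and 1.67 to 2.53% mitochondrial counts. The neutrophil markers, as the mean log2(CPM + 1) over 21 genes, stood at 11.5, 10.2 and 7.44 in POD1 replicates 1, 2 and 3, and at 7.84, 7.36 and 6.67 in the POD2 replicates. The 22 sinusoidal endothelial markers stood at 6.25, 8.08 and 10.4 at POD1 and at 10.2, 10.3 and 10.4 at POD2. POD1 replicate 3 thus stood with the POD2 libraries in both lists and apart from the other two POD1 libraries. Across 14325 genes on the log scale it correlated at Pearson's r from 0.981 to 0.991 with the POD2 libraries, against 0.769 and 0.855 with POD1 replicates 1 and 2. These are correlations across genes, which are not independent replicates. The transcript with the most counts was S100a9, a neutrophil granule protein, in POD1 replicates 1 and 2, and Sepp1, a selenoprotein gene, in the other 4, where the endothelial genes Aqp1 and Fcgr2b were also among the leading 5. In those 4 libraries the leading transcripts went against the label G-MDSC. They are named below by their day and replicate. The scaling factors for composition (TMM) ran from 0.666 in POD1 replicate 1 to 1.43 in POD2 replicate 3, and without them the median change over all genes moved from 0.10 to 0.58 on the log2 scale.

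**Figure D1:**
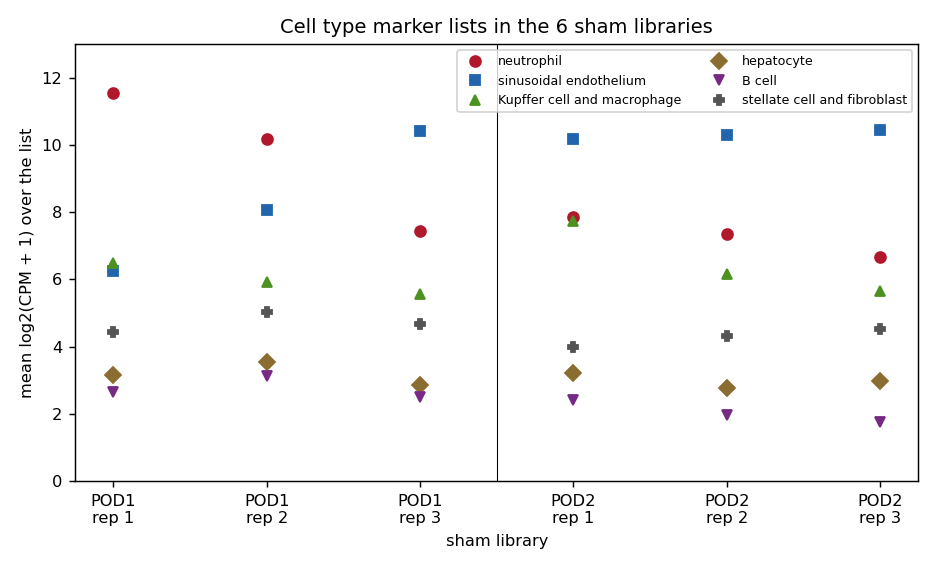
Mean log2(CPM + 1) of 6 cell type marker lists in each sham library, with 1 point per list and library. Neutrophil markers stand at 11.5 and 10.2 in POD1 replicates 1 and 2 and endothelial markers at 6.25 and 8.08, while POD1 replicate 3 lies beside the POD2 libraries in both.

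No gene passed an adjusted p of 0.05 between the days in edgeR's quasi-likelihood test on 24 libraries (0 of 14325 tested in each direction, a background of 0%). The lowest adjusted p was 0.0915, and it was 0.264 in the same test on the 6 sham libraries alone. At an unadjusted p under 0.05, 546 genes were higher at POD2 (3.81%) and 3210 were lower (22.4%). The count depended on POD1 replicate 3. Without that library, 3671 genes were higher (25.1% of 14603) and 3676 were lower (25.2%). Without POD1 replicates 1 and 2, 0 genes were called, with 64 higher and 58 lower at an unadjusted p under 0.05. POD1 is then a lone library, which is assumed to vary like the other groups, and so few calls say little about the days. DESeq2 called 79 genes higher and 2146 lower on the same 24 libraries, and limma voom with sample quality weights called 5236 higher and 4452 lower. Of the 2225 DESeq2 calls, 2196 (98.7%) were among the genes called without POD1 replicate 3, of which they made up 29.9%. POD1 replicate 3 lay inside the POD2 range in 59.5% of the 7281 genes called without it and tested in both fits. It lay inside the range of POD1 replicates 1 and 2 in 0.316%.

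**Figure D2:**
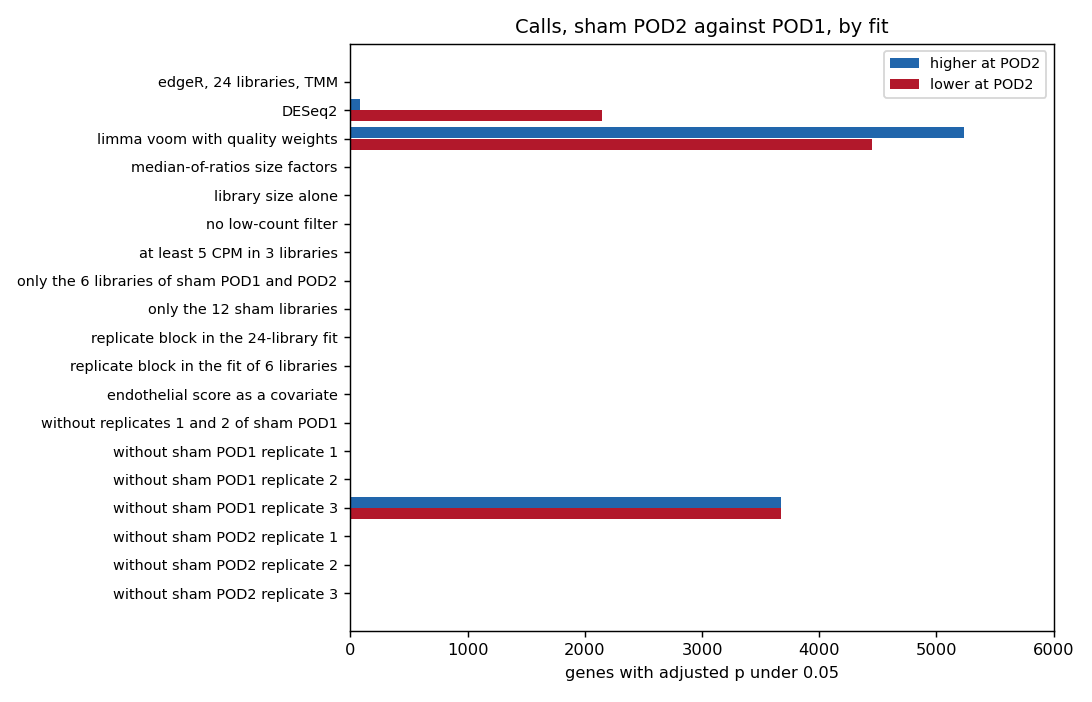
Number of genes with an adjusted p under 0.05 between sham POD1 and POD2 in each fit, higher at POD2 in blue and lower in red. Calls appear with DESeq2 (79 and 2146), with limma voom (5236 and 4452) and without POD1 replicate 3 (3671 and 3676), and the other fits give 0.

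As a description that needs no estimate of spread, genes were also counted whose days did not overlap, that is, whose lowest POD2 library exceeded the highest POD1 library (wholly above) or the reverse (wholly below). With 3 libraries against 3, no exact permutation p can fall below 0.1. Over all genes tested, 1319 lay wholly above (9.21%) and 1070 wholly below (7.47%), and every list is read against these shares.

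The neutrophil genes set the scale of the difference inside POD1. S100a8, a subunit of calprotectin, stood at 23380, 7134 and 1209 CPM at POD1 and at 1470, 724.5 and 523.6 CPM at POD2. POD1 replicates 1 and 2 were far above the rest, and replicate 3 lay inside the POD2 range. Its log2 change was -3.54 (SE 1.13, adjusted p = 0.0915). Ly6g, the antigen used in the separation, was measured at 318.4, 66.2 and 13.58 CPM at POD1 against 22.58, 10.43 and 7.974 CPM at POD2, so the days overlapped. Cxcr2, the chemokine receptor that draws neutrophils into tissue, stood at 4407, 3372 and 386 CPM and then at 534, 319.5 and 243.8 CPM, and Csf3r, the receptor for granulocyte colony-stimulating factor, at 13720, 11740 and 1418 CPM and then at 1596, 1527 and 836.4 CPM. Both again overlapped through POD1 replicate 3. All 21 neutrophil markers had a log2 change below 0 (median -3.07, against 0.10 over all genes), but only Lcn2 and Mrgpra2b, 2 of the 21 (9.52%), lay wholly below POD1. All 28 genes of neutrophil receptors and trafficking were also below 0 (median -2.71), and 0 of them separated the days. Without POD1 replicate 3, all 21 and all 28 passed as lower, against 25.2% of all genes. With POD1 replicate 3 as the sole POD1 library, the medians were -0.06 and 0.07. Fewer cells of a type and less RNA per cell cannot be told apart in such bulk libraries.

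Inflammatory genes gave a similar picture. Il1b, which encodes interleukin 1 beta, stood at 21000, 12230 and 2484 CPM at POD1 and at 2878, 3026 and 1788 CPM at POD2, and Cxcl2, a neutrophil-attracting chemokine, at 14160, 10410 and 608.5 CPM and then at 473.4, 736.1 and 323.7 CPM. In both, POD1 replicate 3 fell inside the POD2 range. Cxcl3, a chemokine of the same family, was measured at 771.3, 434.9 and 12.26 CPM against 6.359, 11.77 and 3.676 CPM, and here replicate 3 was above all 3 POD2 libraries by a small margin. Of 43 tested genes of the inflammatory cytokine and NF-kB list, 4 lay wholly below POD1 (9.3%) and 2 wholly above (4.65%), near the shares over all genes, and with library sizes alone 2 lay wholly below (4.65%, against 3.67%). Among suppressive effectors, 4 of 29 lay wholly below (13.8%, against 7.47% over all genes). Nt5e, the ectoenzyme CD73 that makes adenosine, stood at 36.95, 108.8 and 5.217 CPM at POD1 and at 3.028, 5.213 and 2.036 CPM at POD2. Replicate 3 exceeded the highest POD2 library by a margin smaller than the POD2 spread. Arg1, arginase 1, stood at 75.02, 173.8 and 18.54 CPM and then at 19.86, 17.15 and 8.879 CPM, with overlap.

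The endothelial genes ran the other way. Stab2, the scavenger receptor stabilin 2, stood at 110.2, 456 and 2812 CPM at POD1 and at 2352, 2939 and 2842 CPM at POD2. Kdr, the main VEGF receptor of endothelium, stood at 110.8, 546.6 and 3512 CPM and then at 2727, 3545 and 3482 CPM. In both genes POD1 replicate 3 was inside the POD2 range, and replicates 1 and 2 were far below it. All 22 endothelial markers had a log2 change above 0 (median 1.19), 0 had an unadjusted p under 0.05, and 1 lay wholly above POD1 (4.55%). That gene, F8 (coagulation factor VIII), was at 27.97, 133.1 and 646.4 CPM against 649.7, 720.9 and 756.8 CPM. Without POD1 replicate 3, 8 of the 22 passed as higher, against 25.1% of all genes. With it as the sole POD1 library, their median change was -0.07.

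Glycolysis and the response to low oxygen stood out from this pattern. Cells short of oxygen stabilise hypoxia-inducible factors, which bind a short DNA core and switch on glucose transport, glycolytic enzymes, angiogenic factors and the prolyl hydroxylases that limit the response. Of 40 tested genes of the list, 18 lay wholly below POD1 (45%, against 7.47% over all genes) and 1 wholly above (2.5%, against 9.21%), with a median log2 change of -1.12 and 0 past the adjusted threshold. With library sizes alone in place of TMM, 10 lay wholly below (25%, against 3.67% over all genes) and the median was -0.48 (0.58 over all genes). The direction of the list was kept. Without POD1 replicate 3, 23 of 40 passed as lower and 4 as higher, against 25.2% and 25.1% of all genes. With POD1 replicate 3 alone against the POD2 libraries, 22 of 40 were below it (55%, against 24.9% over all genes) and 2 above. The list's median log2 change was then smaller, at -0.31, against 0.01 over all genes. With the endothelial score as a covariate on all libraries it was -0.41, against -0.02 over all genes.

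Vegfa (chr17:46016993-46032369, minus strand, GRCm38), the main angiogenic growth factor, stood at 116.2, 128.1 and 66.1 CPM at POD1 and at 18.82, 31.5 and 19.68 CPM at POD2. Every POD1 library, replicate 3 included, was above the highest POD2 library. Its log2 change was -2.15 (SE 0.53, unadjusted p = 0.000666, adjusted p = 0.0915). Egln3 (chr12:54178981-54203860, minus strand), a hypoxia-inducible prolyl hydroxylase, stood at 38.97, 84.29 and 18.03 CPM and then at 7.743, 5.661 and 3.054 CPM, with a log2 change of -3.10 (SE 0.94, adjusted p = 0.0915). Edn1, the vasoconstrictor endothelin 1, from the list of angiogenic factors, was low throughout, at 6.514, 8.124 and 2.735 CPM against 0.5191, 1.121 and 0.7352 CPM. In these 3 genes every POD1 library was more than 2 times every POD2 library.

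Glucose uptake and breakdown gave smaller gaps. Slc2a1, the glucose transporter GLUT1, stood at 792.3, 499.1 and 63.67 CPM at POD1 and at 56.58, 43.33 and 26.3 CPM at POD2. Pkm, pyruvate kinase, stood at 2251, 1810 and 537.9 CPM and then at 412, 372.6 and 317.2 CPM. Pfkfb3, which raises the main activator of phosphofructokinase, stood at 348.3, 174 and 62.36 CPM and then at 43.65, 47.42 and 42.81 CPM. Replicate 3 was the lowest POD1 library in all of these and still exceeded each POD2 library. Hif1a, the oxygen-regulated factor itself, stood at 477.5, 263.3 and 93.86 CPM and then at 93.05, 91.08 and 79.12 CPM, so its separation rested on a margin under 1 CPM. Ankrd37 and Bnip3, known hypoxia targets, separated in the same direction with log2 changes of -2.42 and -1.11. Adm, adrenomedullin, was the 1 gene of the list wholly above POD1, at 2.808, 5.262 and 22.19 CPM against 22.32, 23.43 and 39.02 CPM. That separation also rested on a margin under 1 CPM. By log2 change, 9 of the 40 genes were above 0 and 31 below. Epas1 and Ndrg1 were among those above, at 0.90 and 0.47, and their days overlapped.

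The 250 bases before the RefSeq starts of these genes were searched on both strands for the core ACGTG, which hypoxia-inducible factors bind and which also lies within the E-box CACGTG of other factors. Of the 18 genes wholly below POD1, 17 were in the promoter table and 11 held the core before at least 1 start. By promoter this was 13 of 28 (46.4%), against 16.6% of 32851 mouse promoters. The list was chosen for glycolysis and this response, and its other genes were not searched. The share therefore cannot be tied to the change between the days. The promoters of Egln3 and Pfkfb3 are shown because both genes separated the days and hold the core, in capitals here. They are from RefSeq on GRCm38.p6, minus strand, at chr12:54203875-54204124 and chr2:11553930-11554179, with the core 229 and 60 bases before the start.
Egln3: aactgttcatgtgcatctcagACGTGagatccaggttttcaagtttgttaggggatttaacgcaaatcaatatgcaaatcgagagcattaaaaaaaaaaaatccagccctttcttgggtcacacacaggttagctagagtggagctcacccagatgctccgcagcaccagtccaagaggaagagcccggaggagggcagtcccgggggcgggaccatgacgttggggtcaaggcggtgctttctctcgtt
Pfkfb3: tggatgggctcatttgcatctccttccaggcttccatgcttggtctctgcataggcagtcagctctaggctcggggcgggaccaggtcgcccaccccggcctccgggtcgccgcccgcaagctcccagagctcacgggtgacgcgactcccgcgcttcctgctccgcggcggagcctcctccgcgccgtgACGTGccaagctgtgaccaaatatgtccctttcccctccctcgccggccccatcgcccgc
A match describes these letters and not a bound site.

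Oxidative phosphorylation, the mitochondrial route to ATP, ran opposite to glycolysis. Of 53 tested genes, 24 lay wholly above POD1 (45.3%, against 9.21% over all genes) and 0 below, with a median log2 change of 0.56 and 50 of 53 above 0. With library sizes alone, 27 lay wholly above (50.9%, against 13%). Cox6c, a subunit of complex IV, stood at 22.91, 15.69 and 36.72 CPM at POD1 and at 48.28, 43.94 and 53.5 CPM at POD2, with a log2 change of 0.95 (SE 0.31, adjusted p = 0.0922). Ndufb8, a subunit of complex I, stood at 36.28, 30.56 and 54.4 CPM and then at 68.52, 59.92 and 73.8 CPM. Both genes had all POD2 libraries above all POD1 libraries, with POD1 replicate 3 in between. Ndufa4 and Uqcrb, subunits of complexes IV and III, separated in the same direction with log2 changes of 1.16 and 1.25. Without POD1 replicate 3, 33 of 53 passed as higher and 2 as lower, against 25.1% and 25.2% of all genes. With POD1 replicate 3 as the sole POD1 library, the median log2 change was smaller, at 0.18, against 0.01 over all genes. With the endothelial score as a covariate on all libraries it was 0.29, against -0.02 over all genes.

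The relation of the lists within each library does not depend on scaling. The mean log2 count of the glycolysis and hypoxia list minus that of the oxidative phosphorylation list was 1.29, 1.44 and 0 in POD1 replicates 1, 2 and 3, and -0.37, -0.41 and -0.85 in the POD2 replicates. Every POD1 library was above every POD2 library. The neutrophil list minus the endothelial list was 5.32, 2.09 and -3.01 at POD1 and -2.34, -2.97 and -3.81 at POD2. There the days overlapped, and POD1 replicate 3 lay between POD2 replicates 2 and 3. Within POD2 both differences fell in the same order, from replicate 1 to replicate 3. The part of cell makeup in the difference between glycolysis and oxidative phosphorylation was not tested.

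**Figure D3:**
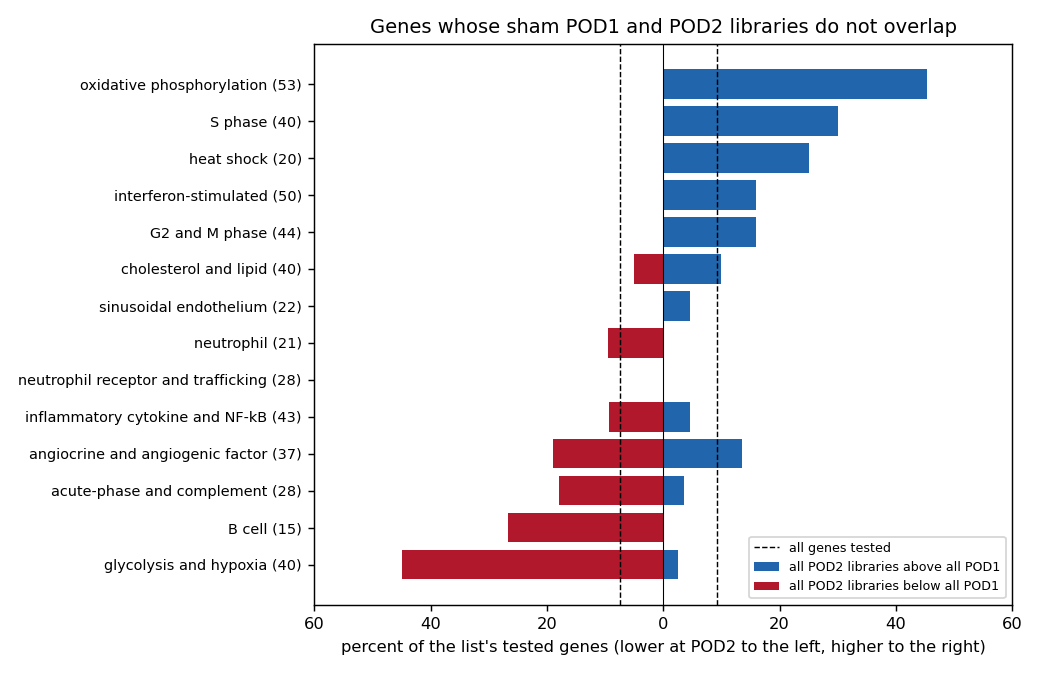
Share of each list's tested genes (number in brackets) whose 3 POD2 libraries all lie above (blue, right) or all below (red, left) the 3 POD1 libraries, with dashed lines at the shares over all 14325 genes (9.21% and 7.47%). Oxidative phosphorylation reaches 45.3% above and glycolysis and hypoxia 45% below, while the neutrophil and endothelial lists stay near or under the shares over all genes.

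Interferon-stimulated genes, which antiviral signalling switches on, split. Of 50 tested, 8 lay wholly above POD1 (16%, against 9.21%) and 0 below, and 30 of 50 had a log2 change below 0. The median was -0.15 with TMM and turned to 0.50 with library sizes alone, where the median over all genes was 0.58 and 21 of 50 lay wholly above (42%, against 13%). Ifi44 (chr3:151730922-151749960, minus strand) stood at 9.322, 13.85 and 36.07 CPM at POD1 and at 75.96, 91.76 and 76.35 CPM at POD2. Ifi44l, its neighbour on the chromosome and a relative in sequence, stood at 4.942, 3.693 and 13.27 CPM and then at 32.75, 36.1 and 30.82 CPM. Every POD2 library was more than 2 times the highest POD1 library in both genes. The log2 changes were 2.04 (SE 0.63) and 2.17 (SE 0.61), each with an adjusted p of 0.0915. Eif2ak2, the antiviral kinase PKR, stood at 14.71, 19.3 and 20.21 CPM and then at 27.04, 35.42 and 32.18 CPM, and Gbp3, a guanylate-binding protein, at 9.434, 16.71 and 18.64 CPM and then at 23.1, 36.38 and 32.41 CPM. In each of these genes POD1 replicate 3 was the highest POD1 library and still below all 3 POD2 libraries.

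Isg15 and Irf7, also of this list, were highest in the neutrophil-rich POD1 libraries. Isg15, a ubiquitin-like protein, stood at 178.6, 130.5 and 31.15 CPM at POD1 and at 50.14, 98.65 and 48.75 CPM at POD2. Irf7, a transcription factor of the response, stood at 521.3, 467.8 and 115.3 CPM and then at 246.1, 327.8 and 170.9 CPM. In both, POD1 replicate 3 was the lowest of the 6 libraries and POD1 replicate 1 the highest, so the days overlapped. Against POD1 replicate 3 alone, 39 of 50 genes of the list were higher in all 3 POD2 libraries (78%, against 20.9% over all genes) and 0 were lower. The list's median log2 change in that comparison was 0.72, against 0.01 over all genes. It compares 1 library with 3, and 0 genes of the whole table passed the adjusted threshold in it.

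**Figure D4:**
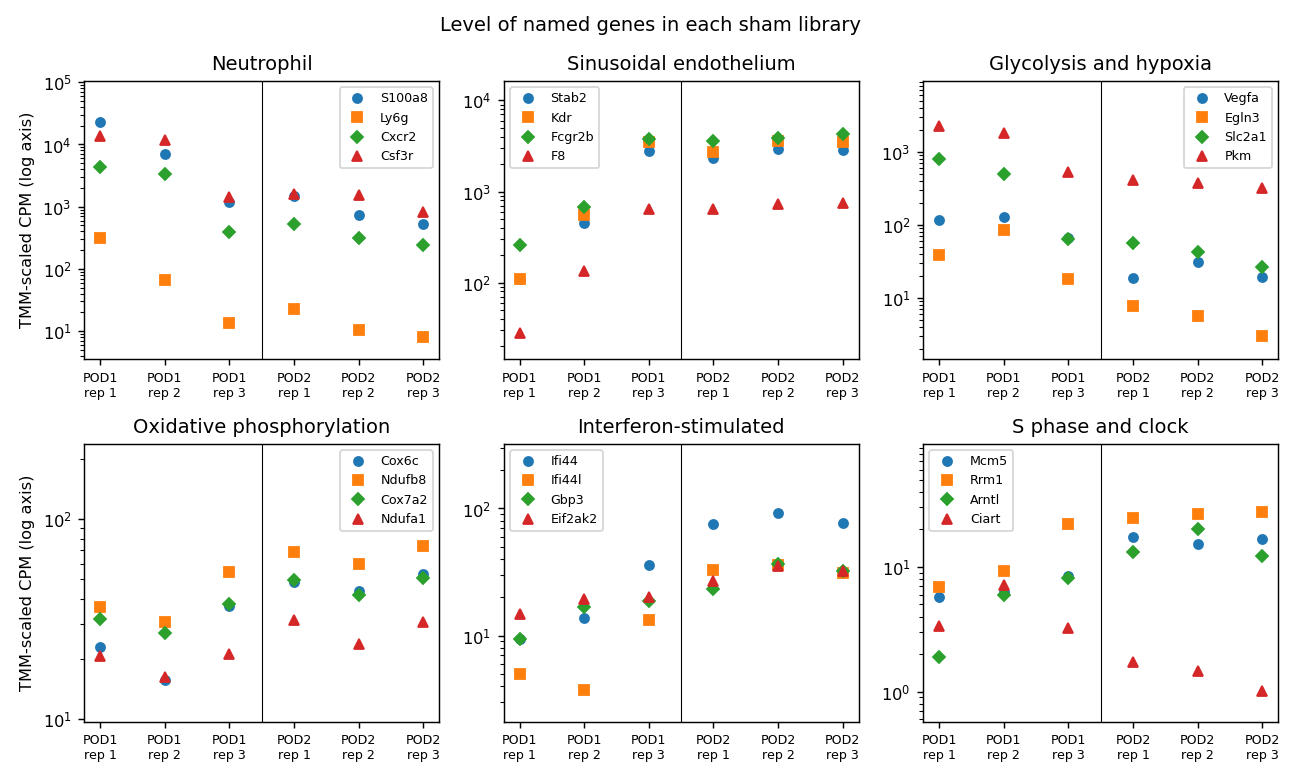
Level of 24 named genes in each sham library, as CPM on a log axis, with 1 point per gene and library. In the neutrophil and endothelial panels POD1 replicate 3 lies with POD2, whereas Vegfa and Egln3 are lower, and Ifi44, Ifi44l and Mcm5 higher, in all POD2 libraries than in all POD1 libraries.

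Genes of DNA replication were low and leaned to POD2. Of 40 S phase genes tested, 12 lay wholly above POD1 (30%, against 9.21%) and 0 below, with a median log2 change of 0.58. With the endothelial score as a covariate the median was 0.18, against -0.02 over all genes. Some of the 12 were near the floor, such as Fen1 at 0.09232 to 1.244 CPM and Rfc4 at 0.7386 to 1.962 CPM. Of 44 genes of the G2 and M phases, 7 lay wholly above (15.9%) and 0 below. With library sizes alone the counts above were 18 (45%) and 13 (29.5%), against 13% of all genes. Mcm5 (chr8:75109569-75128439, plus strand), a subunit of the replicative helicase, stood at 5.728, 6.278 and 8.409 CPM at POD1 and at 17.43, 15.13 and 16.85 CPM at POD2. Its POD2 libraries were close to each other and apart from all POD1 libraries, with a log2 change of 1.27 (SE 0.53, adjusted p = 0.139). Rrm1, a subunit of ribonucleotide reductase, stood at 6.851, 9.232 and 22.03 CPM and then at 24.57, 26.51 and 27.37 CPM. Pcna, the sliding clamp, stood at 17.74, 25.11 and 30.04 CPM and then at 34.3, 39.91 and 36.59 CPM. Not all members leaned this way. E2f2, a transcription factor of the cell cycle, stood at 112.2, 69.15 and 11.95 CPM and then at 12.93, 9.473 and 5.486 CPM, and Mki67, the proliferation antigen Ki-67, at 21.45, 13.29 and 3.748 CPM and then at 7.7, 4.82 and 4.581 CPM. In both, POD1 replicates 1 and 2 were the highest and replicate 3 lay within or below the POD2 range.

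Promoters of the 12 separated S phase genes were searched on both strands for the E2F sites TTTCGCGC and TTTGGCGC, which can overlap each other. They were found in 3 of 15 promoters (20%), from 3 of 12 genes, against 0.654% of all promoters. The promoter of Mcm5 is shown because the gene separated the days and both sites overlap in it, in capitals here, 153 bases before the RefSeq start (GRCm38.p6, plus strand, chr8:75109259-75109508).
Mcm5: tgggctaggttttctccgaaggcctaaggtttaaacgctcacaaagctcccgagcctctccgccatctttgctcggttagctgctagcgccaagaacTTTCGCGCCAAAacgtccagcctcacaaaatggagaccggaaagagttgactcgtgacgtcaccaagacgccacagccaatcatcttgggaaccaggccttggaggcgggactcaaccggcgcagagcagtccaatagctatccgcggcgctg
Of the 8 separated interferon-stimulated genes, 5 were in the promoter table. On either strand, a pair of GAAA half-sites with any 2 bases between them, as in the interferon response element, was found in 2 of 7 promoters (28.6%), against 2.98% of all. The S phase and interferon lists were chosen by function, and their genes that did not separate were not searched. Neither share can therefore be tied to the change between the days.

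Clock genes also differed between POD1 replicate 3 and the POD2 libraries. Against that library alone, 10 of 18 were lower in all 3 POD2 libraries (55.6%, against 24.9% over all genes) and 2 were higher (11.1%, against 20.9%). This again compares 1 library with 3, and clock genes are not independent of each other. The clock is a loop in which Arntl (BMAL1) drives output genes such as Dbp and the repressor Nr1d1, which in turn represses Arntl. Dbp stood at 4.492, 6.555 and 155 CPM at POD1 and at 43.99, 50.84 and 71.94 CPM at POD2. Nr1d1 stood at 11.68, 32.77 and 307 CPM and then at 124.3, 135.6 and 154 CPM. In both, POD1 replicate 3 was the highest of the 6 libraries and replicates 1 and 2 the lowest, so the log2 changes of 0.00 and 0.23 lie between opposite values. Without POD1 replicate 3 they were 3.34 and 2.65 (adjusted p = 0.0162 and 0.0367), and with it as the sole POD1 library -1.48 and -1.15. Arntl stood at 1.909, 5.909 and 8.206 CPM and then at 13.11, 20.01 and 12.22 CPM, wholly above, and Ciart, a repressor in the loop, at 3.369, 7.201 and 3.242 CPM and then at 1.73, 1.457 and 1.018 CPM, wholly below. Of 18 clock genes tested, these were the 1 above (5.56%) and the 1 below (5.56%). The labels give no hour of collection, so its part in these values was not tested.

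Heat shock genes encode chaperones that refold damaged proteins. Of 20 tested, 5 lay wholly above POD1 (25%, against 9.21%) and 0 below, and 8 lay wholly above with library sizes alone (40%, against 13%). The median log2 change was 0.83. With the endothelial score as a covariate it was 0.36, against -0.02 over all genes. Hspa1a, an inducible HSP70, stood at 29.2, 18.1 and 111.7 CPM at POD1 and at 155, 136.8 and 482.2 CPM at POD2, where replicate 3 was far above the rest. Its near-identical copy Hspa1b stood at 30.21, 19.3 and 136.7 CPM and then at 214.9, 138.1 and 600 CPM, and the counting could split reads between the copies. Bag3, a co-chaperone, stood at 13.36, 16.9 and 54 CPM and then at 61.34, 94.67 and 88.68 CPM.

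Markers of Kupffer cells, B cells and hepatocytes gave counts that depended on the scaling. Clec4f, specific to Kupffer cells, stood at 358.2, 158.6 and 138.1 CPM at POD1 and at 1105, 271 and 187.4 CPM at POD2, and Cd5l, also from these macrophages, at 252.4, 124.2 and 108.5 CPM and then at 879, 242.3 and 152.5 CPM. POD2 replicate 1 was the highest of the 6 in both. Of 19 markers 1, Folr2, lay wholly above POD1 with TMM (5.26%, against 9.21%), and 8 did with library sizes alone (42.1%, against 13%). Of 15 tested B cell markers, 4 lay wholly below (26.7%, against 7.47%), at low levels. Cd79a, part of the B cell receptor, stood at 6.963, 9.786 and 5.065 CPM and then at 3.98, 3.251 and 2.262 CPM. With library sizes alone, 0 of the 15 lay wholly below. Of 20 hepatocyte markers, 0 separated the days with TMM, 2 lay wholly above with library sizes alone and 1 wholly below with median-of-ratios size factors. Alb, albumin, was at 68.51, 104 and 53.74 CPM against 61.13, 58.18 and 55.65 CPM. Platelet and megakaryocyte markers kept their direction across the scalings. Of 10 tested, 4 lay wholly above with TMM (40%, against 9.21%) and 5 with library sizes alone (50%, against 13%). With median-of-ratios size factors it was 3 (30%, against 7.98%), and 0 lay wholly below in each.

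Entpd3, Soat2, Igfbp6, Cyp27a1 and Ada had wide gaps between the days, belonged to none of these groups and were chosen after their values were seen. Entpd3, an ectonucleotidase, stood at 381.6, 255.4 and 17.32 CPM at POD1 and at 8.479, 10.76 and 5.995 CPM at POD2. Soat2, which esterifies cholesterol, stood at 183, 104.9 and 14.34 CPM and then at 9.517, 9.136 and 4.751 CPM. Igfbp6, a binding protein for insulin-like growth factors, stood at 126, 81.52 and 8.763 CPM and then at 3.72, 5.605 and 2.545 CPM. Each had all POD2 libraries below all POD1 libraries, with replicate 3 much nearer to POD2. Tfrc, the transferrin receptor, named as a member of the erythroid list, did not follow the neutrophil markers, at 6.514, 13.2 and 11.95 CPM against 5.234, 3.587 and 2.262 CPM. Its log2 change was -1.51 (SE 0.35, unadjusted p = 0.000368, adjusted p = 0.0915). On the higher side, Cyp27a1, a sterol hydroxylase, stood at 6.289, 4.801 and 9.726 CPM and then at 22.58, 16.31 and 14.99 CPM, and Ada, adenosine deaminase, at 8.086, 14.22 and 46.86 CPM and then at 72.37, 78.08 and 75.05 CPM. Both had every POD2 library above every POD1 library.

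The day change after sham was tested against that after hepatectomy, with no library shared between them. In edgeR's quasi-likelihood test, 526 genes had a difference (sham minus hepatectomy) above 0 (3.67%) and 876 below 0 (6.12%) at an adjusted p under 0.05. After hepatectomy alone, 4949 genes were higher and 3135 lower at POD2. The hepatectomy POD1 libraries were all poor in endothelial transcripts, with an endothelial score of 4.34 to 5.29 on the log2 scale against 9.77 to 10.01 at POD2. In sham the score was 6.14, 8.06 and 10.44 at POD1 and 10.24, 10.32 and 10.48 at POD2. Its part in the interaction was not tested beyond the fit with this score as a covariate, which called 5382 genes.

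The genes with the lowest interaction p were chosen after their values were seen. Slc9a8, a sodium-proton exchanger, stood at 18.08, 17.26 and 24.97 CPM at sham POD1 and at 16.27, 24.1 and 18.27 CPM at sham POD2. After hepatectomy it stood at 211.8, 147.3 and 165.3 CPM at POD1 and at 15.97, 19.11 and 19.93 CPM at POD2, a difference of 3.21 in log2 change (SE 0.28, adjusted p = 4.91e-06). Limk2, a kinase that acts on cofilin, stood at 56.94, 59.36 and 64.33 CPM and then at 48.93, 52.18 and 47.05 CPM in sham, against 493.6, 421.9 and 529.6 CPM and then 41.51, 41.83 and 42.53 CPM after hepatectomy. In both genes the hepatectomy POD1 libraries stood above all others. The sham days overlapped for Slc9a8, and for Limk2 all sham POD2 libraries lay below all sham POD1 libraries. A choice by the lowest p favours genes with a small spread within groups. Fam102a was high where Slc9a8 was low, at 77.04 to 122.6 CPM in the 6 sham libraries, 16.35 to 19.68 CPM at hepatectomy POD1 and 71.1 to 87.01 CPM at hepatectomy POD2.

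Some members of the lists above had day changes of opposite sign after the operations. Arg1 had a log2 change of -2.54 after sham and 4.03 after hepatectomy, where it stood at 15.45, 14.38 and 9.347 CPM at POD1 and at 238, 106.5 and 295.6 CPM at POD2. The difference was -6.57 (adjusted p = 0.00177). Fn1, fibronectin, had -2.78 and 3.65, with a difference of -6.43 (adjusted p = 0.00177). The sham changes by themselves did not pass the adjusted threshold, and the differences did. In sham, Fn1 stood at 307.2, 893.1 and 66.61 CPM at POD1 and at 76.74, 75.5 and 31.78 CPM at POD2. For Fn1 and Arg1 alike, sham POD1 replicate 3 lay inside the sham POD2 range. With that replicate as the sole sham POD1 library, the sham log2 changes were -0.115 for Fn1 and -0.27 for Arg1. Of 40 S phase genes, 22 passed the adjusted threshold with a difference below 0 and 0 with one above, against 6.12% and 3.67% of all genes. Rrm1 had a log2 change of 1.03 after sham and 3.69 after hepatectomy (difference -2.66, adjusted p = 0.0314). Of 15 B cell genes, 11 passed it with a difference below 0 and 0 with one above, against the same shares. Cd79a stood at 0.3894, 0.4188 and 0.4381 CPM at hepatectomy POD1 and at 3.389, 4.943 and 8.01 CPM at POD2, opposite in direction to sham. Of 40 genes of cholesterol and lipid metabolism, 13 passed the threshold with a difference above 0 and 3 with one below, against 3.67% and 6.12% of all genes. Neutrophil and glycolysis genes gave no such difference, with 0 of 21 and 0 of 40 past the threshold, which does not show that they changed alike.

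**Figure D5:**
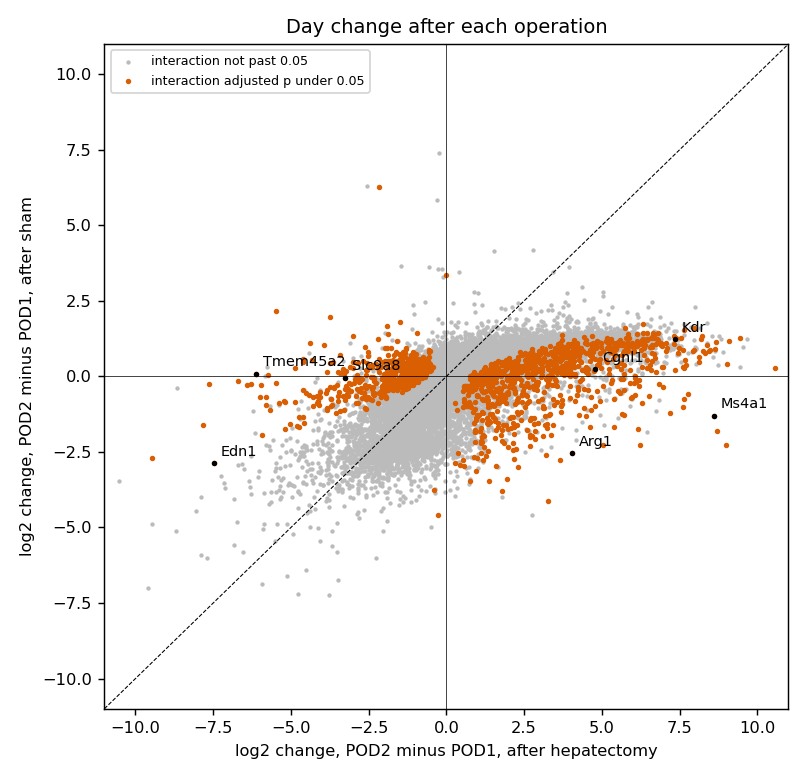
Log2 change from POD1 to POD2 after sham (vertical axis) against that after hepatectomy (horizontal axis) for 14325 genes, with genes past an adjusted p of 0.05 for the difference in orange and the dashed line at equal change. Slc9a8 and Tmem45a2 lie near 0 on the sham axis, and Arg1 and Ms4a1 lie below 0 after sham and above 0 after hepatectomy.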

How the data were processed

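Poly-A RNA of 24 libraries was measured, and 6 of them, sham POD1 and POD2, are described. The authors deposited whole-number counts, not normalized, for each gene symbol and library. Per the submitters' processing notes, the authors used cutadapt, STAR 2.4.2a on GRCm38 and HTSeq, and the annotation release, strand setting and filters are not given in the sources used here. Of 46477 symbols, 27740 had at least 1 count. Groups came from the labels.

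Counts were fitted with edgeR 4.0.16 in R 4.3.3 (quasi-likelihood F test, 24 libraries in 8 groups, 16 residual degrees of freedom, TMM, filterByExpr, 14325 genes, Benjamini-Hochberg adjustment at 0.05, two-sided). CPM are TMM-scaled. Standard errors were taken as the log2 change divided by the square root of F. Alternatives used DESeq2 1.42.0, limma 3.58.1 voom with quality weights, other scalings and filters, fewer libraries, a replicate block and an endothelial score as covariate. The code was tested on simulated data.

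Named genes were to be the largest and the most stable calls, of which there were 0, up to 4 members per list with the lowest p, and 19 set genes. A further 20 genes with the widest gap between days and 12 with the lowest interaction p, and the other list members named for their separation, were chosen after their values were seen. The comparison, the lists and the named members were chosen with earlier results of these data known. Promoters (250 bases before each start) came from RefSeq on GRCm38.p6, and gene positions from GENCODE M21 on GRCm38. At 12372923 to 16949088 counts per library, counting error matters mainly for genes of a few CPM or less.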

Additional observations from a re-analysis of the deposited data

Results flagged for a closer look

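The day change differed between sham and hepatectomy, by the interaction test, for 1402 genes in all. Differences are given here as the log2 change after sham minus that after hepatectomy, each at an adjusted p under 0.05 in edgeR's quasi-likelihood test.

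Above 0, the differences were 3.21 for Slc9a8, 3.23 for Limk2, 3.30 for Pwp1, 4.87 for Tifa, 6.23 for Tmem45a2, 7.39 for Mfsd7a, 4.63 for Edn1, 1.36 for Eif2ak2 and 1.30 for Ndufa1. Tifa, an adaptor of NF-kB signalling, stood at 14.82 to 33.74 CPM in the 6 sham libraries, at 421.3, 357.7 and 513.2 CPM at hepatectomy POD1 and at 20.51, 23.51 and 20.38 CPM at hepatectomy POD2. Tmem45a2 stood at 0.6463 to 1.301 CPM in sham and at 38.03, 43.7 and 45.13 CPM at hepatectomy POD1. The hepatectomy POD1 libraries alone were high in both genes. Eif2ak2 and Ndufa1 lost the call with library sizes alone, at differences of 0.56 (adjusted p = 0.459) and 0.53 (adjusted p = 0.449), and with no low-count filter (adjusted p = 0.091 and 0.0785). Eif2ak2 also lost it without sham POD1 replicates 1 and 2 (0.0717), sham POD2 replicate 2 (0.0619) or sham POD2 replicate 3 (0.0542).

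Below 0, the differences were -2.30 for Fam102a, -3.55 for Ctc1, -2.81 for Atg4c, -3.29 for Iqce, -4.54 for Cgnl1, -3.88 for Ephx1, -6.57 for Arg1, -6.43 for Fn1, -4.88 for Cd79a, -4.53 for Pola1, -2.66 for Rrm1, -3.82 for Col1a1, -2.36 for Cyp27a1, -6.12 for Kdr and -5.38 for Nr1d1. Ms4a1 had a fitted difference of -9.90. All 3 hepatectomy POD1 libraries had 0 CPM of it, so that value depends on the prior count and is not a bound. Cgnl1, a junction protein, stood at 12.46 to 40.88 CPM in sham and at 0.5192, 1.675 and 1.46 CPM at hepatectomy POD1. Kdr and Nr1d1 lost the call without sham POD1 replicate 3, with differences of -4.03 (adjusted p = 0.113) and -2.98 (adjusted p = 0.154). They also lost it at nearly the same size without any 1 sham POD2 library (adjusted p = 0.0742 to 0.0795 and 0.0684 to 0.0751) and with the replicate block (0.0569 and 0.0578). Cyp27a1 lost it without sham POD2 replicate 3 (adjusted p = 0.0515).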

How the results depend on the processing

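The 0 calls between the days in sham became 79 higher and 2146 lower with DESeq2, and 5236 and 4452 with limma voom. Leaving out 1 library gave 0 to 3671 higher and 0 to 3676 lower, with calls only without sham POD1 replicate 3. Other scalings, filters, subsets, the endothelial covariate and leaving out POD1 replicates 1 and 2 gave 0 in both directions. The interaction count of 1402 became 2718 with DESeq2, 6003 with voom, 2436 with library sizes alone, 698 with no low-count filter, 5382 with the endothelial covariate, 2923 without POD1 replicates 1 and 2, and 653 to 2043 with 1 library left out (737 without POD2 replicate 2 and 653 without replicate 3). Genes not overlapping numbered 1984 above with no filter and 526 below with library sizes alone. Added after seeing the data, these counts were 6187 above and 5068 below without POD1 replicate 3, and 2987 and 3568 without replicates 1 and 2. The causes were not tested.

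Signs turned without POD1 replicates 1 and 2, where the log2 change was 0.014 for Ly6g, 0.65 for Cxcr4, 0.049 for Il1b, -0.049 for Stab2, -0.11 for Kdr, -1.48 for Dbp, -1.15 for Nr1d1, 1.08 for Isg15 and 1.11 for Irf7. With the endothelial covariate it was -0.56 for Dbp, -0.51 for Nr1d1, 0.51 for Isg15 and 0.48 for Irf7. Irf7 was 0.18 with library sizes alone. Dbp, near 0, was -0.015 with DESeq2, -0.019 with median-of-ratios size factors, -0.0058 with at least 5 CPM in 3 libraries, and -0.54, -0.52 and -0.23 without POD1 replicate 1, POD1 replicate 2 and POD2 replicate 3, and 3.34 without POD1 replicate 3. Nr1d1 was -0.299 and -0.21 without POD1 replicate 1 and replicate 2, and 2.65 without POD1 replicate 3.

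With the replicate number as a block, 0 genes were called in the fit of 24 libraries and 0 in that of 6, and the interaction count was 1171. The numbers were not taken to pair the libraries, and with 3 libraries a day the values cannot decide whether they do. Deviations of same-numbered libraries correlated at 0.399, 0.0954 and 0.62. For POD1 replicates 1 and 3 the same-numbered POD2 library gave the highest correlation. POD1 replicate 2 correlated best with POD2 replicate 1 (0.353).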

Other observations

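Transcripts of pancreatic digestive enzymes, chosen after their values were seen, were present in some libraries. Ctrb1, a chymotrypsinogen, had 8, 1 and 3 counts at sham POD1 and 226, 3 and 44 counts at sham POD2. Pnlip, pancreatic lipase, had 2, 1 and 4 counts and then 119, 1 and 25 counts. Sham POD2 replicate 1 was the highest of the 6 in both. In the rest of the series, replicate 1 of hepatectomy POD3 had 1018 counts of Ctrb1 and 228 of Pnlip. Sham POD2 replicate 1 was also the library with the highest Kupffer cell markers, and any link between these was not tested.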
